A study of Mus musculus with 17 samples.

Results

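Genes whose products work with beta-catenin in the nucleus were followed in embryonic mouse kidneys in which beta-catenin had been stabilised. The 10 genes were taken by symbol from the 24432 gene IDs of the expression table: Ctnnb1, the 4 TCF/LEF genes Lef1, Tcf7, Tcf7l1 and Tcf7l2, the co-activator genes Bcl9, Bcl9l and Pygo2, the co-repressor gene Tle1, and Sp5. All 10 were found. Dissected kidneys of mixed strain at E12.5, an early stage of ureteric branching, were measured by bulk RNA sequencing in 17 libraries. The 5 Foxd1-Cre libraries carry the genotype Ctnnb1-delta3 c/+;Foxd1, in which 1 conditional allele of Ctnnb1 can lose exon 3 in cells with Cre under Foxd1 control, a gene of stromal progenitors. The 3 Six2-Cre libraries carry Ctnnb1-delta3 c/+;Six2, with the same allele and Cre under Six2 control, a gene of nephron progenitors. The 9 remaining libraries are labelled as wild type. Foxd1-Cre was compared with wild types 1 to 6 and Six2-Cre with wild types 7 to 9, which were sequenced to similar depth. The labels do not say whether the wild types carried Cre or the floxed allele, nor how many animals were pooled in a library. Each library is a whole organ, so recombined and unrecombined cells were measured together, and fewer cells of a type cannot be told apart from less RNA per cell.

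Beta-catenin does not bind DNA itself. In cells without a Wnt signal it is phosphorylated and destroyed, and TCF/LEF proteins sit on their target genes together with TLE (Groucho) co-repressors. When beta-catenin escapes destruction it enters the nucleus, binds TCF/LEF proteins in place of TLE, and recruits BCL9 or BCL9L, which in turn bind Pygopus proteins. LEF1 and TCF7 act mostly as activators, TCF7L1 mostly as a repressor, and TCF7L2 as either. In the embryonic kidney, Wnt9b from the ureteric bud acts through beta-catenin in nephron progenitors, both in their renewal and in the onset of their differentiation.

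Exon 3 is shown because it is the piece of Ctnnb1 that Cre is meant to remove in both mutants. It lies on the plus strand at chr9:120950522-120950749 (GRCm38, GENCODE M21), is 228 bases long and entirely coding, and its loss removes 76 codons and keeps the reading frame. Capitals mark codons 33, 37, 41 and 45, which encode the serine and threonine residues whose phosphorylation sends beta-catenin to destruction.
Ctnnb1 exon 3: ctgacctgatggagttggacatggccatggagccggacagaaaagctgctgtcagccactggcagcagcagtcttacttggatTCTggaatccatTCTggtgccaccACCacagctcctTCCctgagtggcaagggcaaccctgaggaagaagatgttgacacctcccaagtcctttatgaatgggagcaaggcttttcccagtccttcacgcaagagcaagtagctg
The exon makes up 6.29% of the 3623-base transcript, and 6 of the 15 annotated Ctnnb1 transcripts contain it. A whole-gene value cannot show its loss, so the recombination named by the labels could not be checked from these data. The 13 direct targets of beta-catenin described further on give the nearest readout, an indirect one. They were listed with earlier results of these kidneys known, so they do not test the recombination.

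Sp5 encodes a zinc-finger factor of the Sp family that is itself a Wnt target and binds GC-rich DNA. It had the highest relative change of the 10 genes in Six2-Cre kidneys, and the 250 bases before its start are therefore shown. They lie at chr2:70474673-70474922 on the plus strand (RefSeq, GRCm38.p6), and capitals mark a TCF/LEF core, searched as CTTTGAA or CTTTGAT on both strands, which begins 104 bases before the start.
Sp5 upstream region: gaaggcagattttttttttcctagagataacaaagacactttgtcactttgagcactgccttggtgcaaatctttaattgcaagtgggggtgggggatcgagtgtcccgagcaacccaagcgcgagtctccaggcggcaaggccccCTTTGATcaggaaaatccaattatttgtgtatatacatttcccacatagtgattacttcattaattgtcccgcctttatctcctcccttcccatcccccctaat
Windows were found for 9 of the 10 genes, with none for Bcl9l. Of their 17 windows of 250 bases, the one of Sp5 held the core, and of all 32851 windows of this length 7.48% did. The GC box GGGCGG, on both strands, stood in 13 of the 17 windows, from 8 genes, and in 32.7% of all windows, but not in the Sp5 window. A match is a description of the letters and not a binding site.

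Expression is given as FPKM, fragments per kilobase of transcript scaled to library size, as deposited. Read from their smallest steps, depth was about 28800000 to 37400000 reads in the 11 libraries of the Foxd1-Cre comparison and about 5240000 to 5790000 in the 6 of the Six2-Cre comparison. The first set had 5312 to 5807 genes at 0 and the second 7590 to 7891. This split is not in the labels, and levels are compared across it only as descriptions. Summed markers of nephron progenitors, stroma, ureteric bud and endothelium were far above 0 in every library, whereas the 5 lymphocyte markers summed to at most 1.24 FPKM. Cd3e and Cd3g were at 0 in all libraries of both mutants, and Cd3e also in wild types 7 to 9. All 10 genes had at least 1 FPKM in every library and passed the filter. Changes are differences of log2(FPKM + 1) with their standard error (SE), which understate changes of low genes, and a gene was called at an adjusted p under 0.05 (limma, two-sided, Benjamini-Hochberg over all genes).

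In Foxd1-Cre kidneys 4 of the 10 genes rose (Lef1, Tcf7, Tle1 and Sp5), 1 fell (Tcf7l1) and 5 were not called, where 8.45% of the 13996 genes tested were called up and 4.82% down (13.3% in all). In Six2-Cre kidneys 4 of the 10 also rose (Ctnnb1, Lef1, Bcl9l and Sp5), 1 fell (Tcf7l1) and 5 were not called, where 7.93% of the 13828 genes tested were called up and 5.84% down (13.8% in all). Lef1 and Sp5 were called up and Tcf7l1 down in both mutants. The median change over the 10 genes was 0.18 in Foxd1-Cre and 0.07 in Six2-Cre kidneys, against -0.01 over all genes in each. With libraries rescaled to the same sum, 1228 genes were called up and 405 down in the Foxd1-Cre comparison, against 1182 and 674 as reported, and of the 10 genes 5 rose and 0 fell, since Tcf7l2 gained and Tcf7l1 lost its call.

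**Figure D1:**
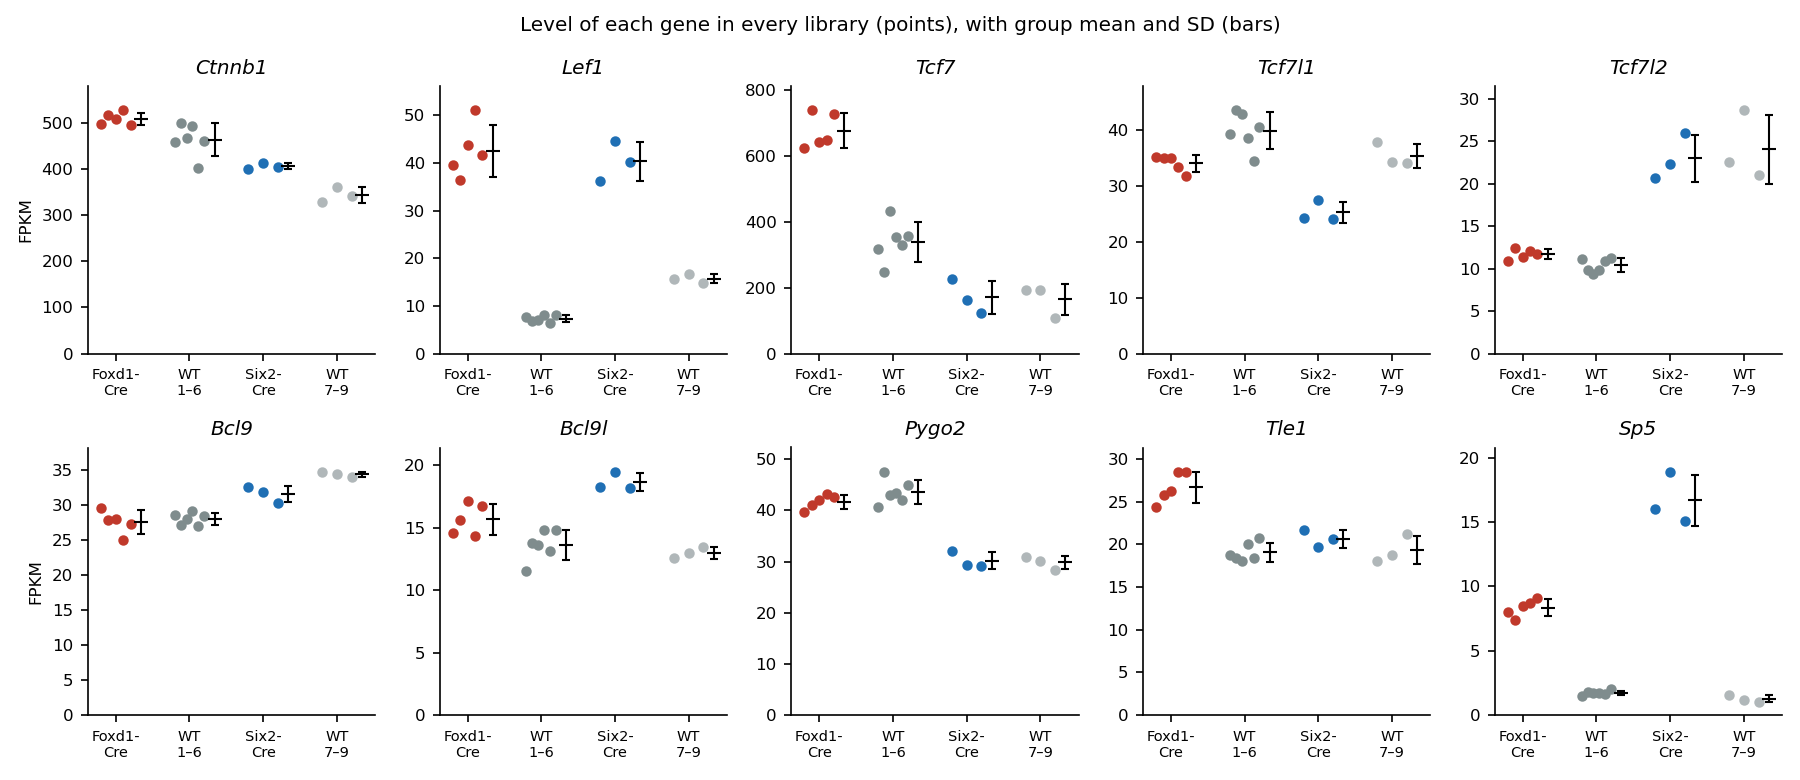
FPKM of the 10 genes in every library, 1 panel per gene with its own axis from 0, Foxd1-Cre left of wild types 1 to 6 and Six2-Cre left of wild types 7 to 9; points are libraries and bars are the group mean and SD. Lef1 and Sp5 stand above their wild types in every library of both mutants, Tcf7 and Tle1 do so in Foxd1-Cre only, and Tcf7l1 stands below in every Six2-Cre library.

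Ctnnb1 (ENSMUSG00000006932, chr9:120929216-120960507, plus strand) differed little from wild type as mRNA. It measured 498, 516, 507, 527 and 494 FPKM in Foxd1-Cre libraries 1 to 5, against 402, 463 and 500 FPKM as the lowest, median and highest of wild types 1 to 6. The groups overlapped, and the change of 0.14 ± 0.05 (SE) was not called (adjusted p = 0.105). In Six2-Cre libraries 1 to 3 it measured 400, 414 and 404 FPKM, against 327, 360 and 342 FPKM in wild types 7 to 9. These did not overlap, a ratio of means of 1.18, and the change of 0.24 ± 0.05 was called (adjusted p = 0.0214). The call was lost without Six2-Cre library 1, 2 or 3 (adjusted p = 0.0601, 0.0759 and 0.0772) and without wild type 9 (adjusted p = 0.0557). The effect in Foxd1-Cre minus that in Six2-Cre was -0.10 ± 0.07 and not called (adjusted p = 0.389). Ulk4, an opposite-strand gene that overlaps Ctnnb1, measured only 1.15 to 2.86 FPKM.

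Lef1 (ENSMUSG00000027985, chr3:131110471-131224356, plus strand) rose in both mutants. It measured 39.5, 36.5, 43.8, 51.0 and 41.6 FPKM in Foxd1-Cre libraries 1 to 5, against 6.31, 7.37 and 8.14 FPKM as the lowest, median and highest of wild types 1 to 6. Every Foxd1-Cre library stood above every wild type, with a ratio of means of 5.79. The change was 2.38 ± 0.08 (SE, adjusted p = 4.32e-09). In Six2-Cre libraries 1 to 3 Lef1 measured 36.3, 44.6 and 40.1 FPKM, against 15.6, 16.7 and 14.8 FPKM in wild types 7 to 9. Again no library overlapped, with a ratio of means of 2.56 and a change of 1.30 ± 0.09 (adjusted p = 8.89e-04). The Foxd1-Cre effect was the larger, by 1.08 ± 0.12 (adjusted p = 1.83e-05). The mutants themselves averaged 42.5 ± 5.50 (SD, n = 5) and 40.3 ± 4.13 FPKM (SD, n = 3) with overlapping ranges, whereas wild types 1 to 6 averaged 7.34 ± 0.715 FPKM (n = 6) and wild types 7 to 9 averaged 15.7 ± 0.968 FPKM (n = 3) with none. The difference between the effects therefore moved with the wild-type levels of the sets of different depth, and what part those had in it was not tested.

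Sp5 (ENSMUSG00000075304, chr2:70474923-70477729, plus strand) rose in both mutants as well, and more in Six2-Cre. It measured 8.00, 7.40, 8.47, 8.74 and 9.09 FPKM in Foxd1-Cre libraries, against 1.497, 1.71 and 2.01 FPKM as the lowest, median and highest of wild types 1 to 6. The groups were apart by a ratio of means of 4.85, and the change was 1.78 ± 0.06 (SE, adjusted p = 2.85e-09). In Six2-Cre libraries Sp5 measured 16.0, 18.9 and 15.1 FPKM, against 1.57, 1.20 and 1.02 FPKM in wild types 7 to 9. These were apart by a ratio of means of 13.2, and the change was 2.97 ± 0.13 (adjusted p = 1.80e-04). Foxd1-Cre minus Six2-Cre, the effects differed by -1.19 ± 0.14 (adjusted p = 6.60e-04). For Sp5 the wild types of both sets overlapped, and the mutants did not: the order of group means was Six2-Cre 16.7, Foxd1-Cre 8.34, wild types 1 to 6 1.72 and wild types 7 to 9 1.26 FPKM. Read steps put an estimated 529 to 581 reads behind Sp5 in Foxd1-Cre and 102 to 142 in wild types 1 to 6, and 176 to 228 in Six2-Cre against 11 to 19 in wild types 7 to 9, so the size of the Six2-Cre fold is the less precise one. These read numbers cover counting error only.

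Tcf7 (ENSMUSG00000000782, chr11:52252371-52283014, minus strand) had the highest FPKM of the 4 TCF/LEF genes in all 17 libraries, an order that depends on the transcript lengths used for the FPKM, which are not given in the sources used here, and changed in Foxd1-Cre alone by the calls. It measured 623, 739, 644, 649 and 730 FPKM in Foxd1-Cre libraries, against 247, 342 and 433 FPKM as the lowest, median and highest of wild types 1 to 6. The groups were apart by a ratio of means of 1.99, and the change was 1.01 ± 0.12 (SE, adjusted p = 9.59e-05). In Six2-Cre libraries Tcf7 measured 225, 163 and 123 FPKM, against 193, 192 and 109 FPKM in wild types 7 to 9. These groups overlapped in part, with Six2-Cre library 1 above every wild type and wild type 9 below every Six2-Cre library. The change was 0.05 ± 0.30 (adjusted p = 0.926). Its sign turned without Six2-Cre library 1 (-0.17) or wild type 9 (-0.22). The 2 effects differed by 0.95 ± 0.32, which was not called (adjusted p = 0.104), so the calls do not show that the mutants differ. It was called without wild type 9 (1.23, adjusted p = 0.0273) and, with every library kept, in 1 joint fit of the 4 group means (0.95, adjusted p = 0.0374). The coefficient of variation of Tcf7 was 7.90% in Foxd1-Cre and 17.8% in wild types 1 to 6, and 30.1% in Six2-Cre and 29.3% in wild types 7 to 9.

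Tcf7l1 (ENSMUSG00000055799, chr6:72626378-72789254, minus strand) fell in both mutants, the only one of the 10 genes called down in either. It measured 35.2, 35.0, 35.1, 33.5 and 31.8 FPKM in Foxd1-Cre libraries, against 34.5, 40.1 and 43.6 FPKM as the lowest, median and highest of wild types 1 to 6. The groups overlapped at their edges, and the change was -0.22 ± 0.06 (SE, adjusted p = 0.0233). That call was lost without Foxd1-Cre library 4 or 5 (adjusted p = 0.0547 and 0.0662) and without wild type 3 (adjusted p = 0.0530), as well as with the same-sum scaling. In Six2-Cre libraries Tcf7l1 measured 24.3, 27.6 and 24.1 FPKM, against 37.9, 34.3 and 34.2 FPKM in wild types 7 to 9. Every Six2-Cre library was below every wild type, with a ratio of means of 0.713 and a change of -0.47 ± 0.07 (adjusted p = 0.0103). The difference of the effects, 0.25 ± 0.09, was not called (adjusted p = 0.101), but was without Six2-Cre library 2 (0.31, adjusted p = 0.0442). Several short genes of either strand lie within Tcf7l1, and those in the table measured at most 2.88 FPKM.

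Tcf7l2 (ENSMUSG00000024985, chr19:55741820-55933654, plus strand) did not pass the test in either mutant. It measured 10.9 to 12.45 FPKM in Foxd1-Cre and 9.38 to 11.3 FPKM in wild types 1 to 6, a change of 0.16 ± 0.05 (SE, adjusted p = 0.0752). In Six2-Cre it measured 20.6 to 26.0 FPKM and in wild types 7 to 9 it measured 21.0 to 28.6 FPKM, a change of -0.06 ± 0.13 (adjusted p = 0.816). Both pairs overlapped, and the larger gap was between the library sets.

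**Figure D2:**
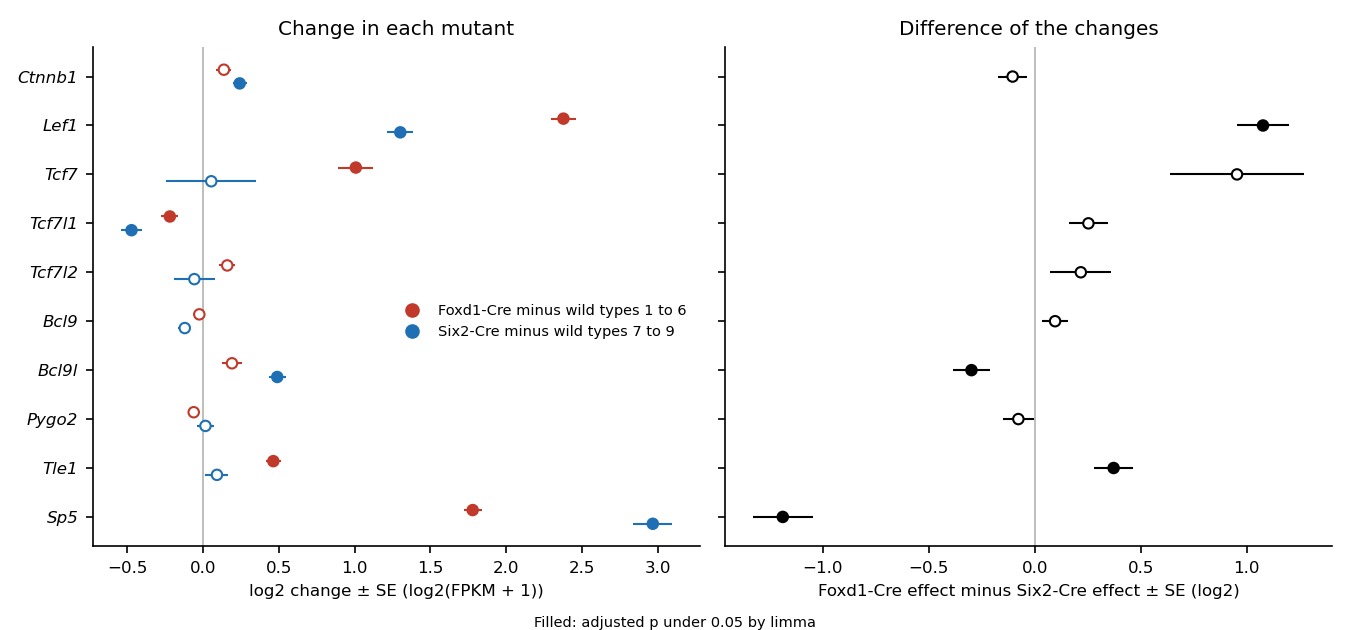
Left, change in log2(FPKM + 1) with its SE for each of the 10 genes in Foxd1-Cre (red, upper) and Six2-Cre (blue, lower) kidneys against their wild types; right, the difference of these changes (Foxd1-Cre minus Six2-Cre) with its SE; filled points have a limma adjusted p under 0.05. Lef1 lies to the right and Sp5 to the left of 0 in the right panel, at 1.08 and -1.19.

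As a description with no test, the 4 TCF/LEF transcripts were also taken as shares of their summed FPKM in each library, which rest on the same lengths. Tcf7 made up 88.4% ± 1.21 (SD, n = 5) in Foxd1-Cre and 85.2% ± 2.61 (n = 6) in wild types 1 to 6, and 64.8% ± 7.98 (n = 3) in Six2-Cre and 67.8% ± 5.98 (n = 3) in wild types 7 to 9. The sum of the 4 was 709 to 823 FPKM in Foxd1-Cre against 307 to 492 FPKM in wild types 1 to 6, and 214 to 306 FPKM in Six2-Cre against 179 to 272 FPKM in wild types 7 to 9. Because Tcf7 sets that sum, the other 3 were also set against each other without it, a choice made after seeing the data. Lef1 then held 43.4% to 52.8% in Foxd1-Cre and 11.3% to 14.2% in wild types 1 to 6, and 44.5% to 47.2% in Six2-Cre and 20.6% to 21.2% in wild types 7 to 9. The share of Tcf7l1 without Tcf7 averaged 38.8% in Foxd1-Cre and 69.2% in wild types 1 to 6, and 28.6% in Six2-Cre and 47.3% in wild types 7 to 9. Among these 3 transcripts, Lef1 was thus the first by share in every Foxd1-Cre and Six2-Cre library, and Tcf7l1 in every wild type.

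**Figure D3:**
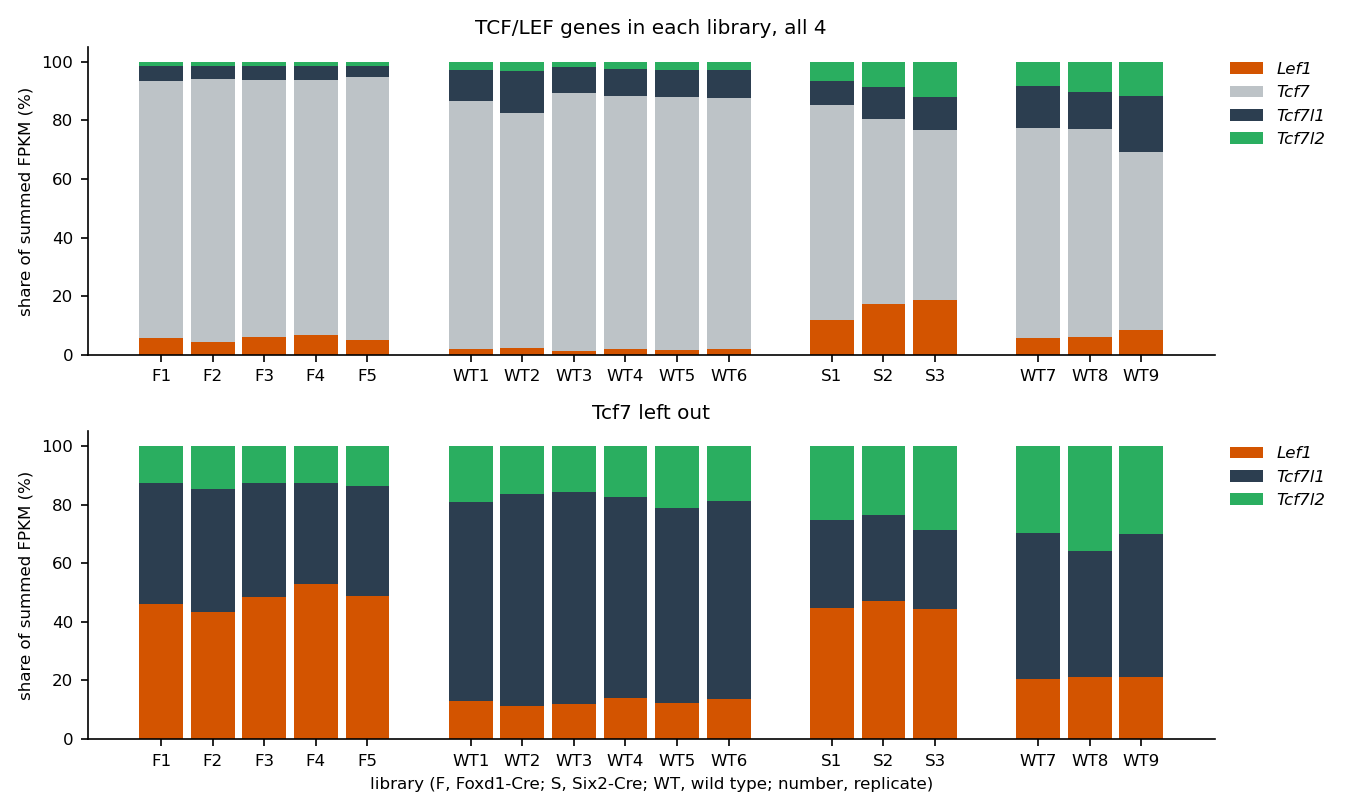
Share (%) of Lef1, Tcf7, Tcf7l1 and Tcf7l2 in their summed FPKM, 1 stacked bar per library, for all 4 (top) and with Tcf7 left out (bottom), in Foxd1-Cre, wild types 1 to 6, Six2-Cre and wild types 7 to 9. With Tcf7 left out, Lef1 averages 47.9% in Foxd1-Cre and 12.7% in wild types 1 to 6, and 45.5% in Six2-Cre and 20.9% in wild types 7 to 9.

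Of the co-activator genes, Bcl9l changed in Six2-Cre kidneys and Bcl9 and Pygo2 in neither. Bcl9 and Bcl9l encode the adaptors between beta-catenin and Pygopus. Bcl9l (ENSMUSG00000063382, chr9:44482825-44511896, plus strand) measured 18.3, 19.5 and 18.2 FPKM in Six2-Cre libraries, against 12.54, 13.0 and 13.5 FPKM in wild types 7 to 9. The groups were apart by a ratio of means of 1.44, and the change was 0.49 ± 0.06 (SE, adjusted p = 0.00419). In Foxd1-Cre it measured 14.3 to 17.1 FPKM against 11.6 to 14.9 FPKM in wild types 1 to 6, overlapping, a change of 0.19 ± 0.07 that was not called (adjusted p = 0.0927). Foxd1-Cre minus Six2-Cre, the effects differed by -0.30 ± 0.09 (adjusted p = 0.0362). This last call was lost in 12 of the fits that left out 1 library, with adjusted p up to 0.0992: those without Foxd1-Cre library 1, 2 or 4, any Six2-Cre library, or wild type 2, 3, 4, 6, 7 or 8.

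Bcl9 (ENSMUSG00000038256, chr3:97203662-97297917, minus strand) measured 25.1 to 29.7 FPKM in Foxd1-Cre and 27.0 to 29.1 FPKM in wild types 1 to 6, a change of -0.03 ± 0.04 (SE, adjusted p = 0.757). In Six2-Cre it measured 32.6, 31.9 and 30.4 FPKM, against 34.8, 34.4 and 34.1 FPKM in wild types 7 to 9. The Six2-Cre libraries were all lower, but the change of -0.12 ± 0.04 was not called (adjusted p = 0.130). Pygo2 (ENSMUSG00000047824, chr3:89430214-89435128, plus strand), whose protein reads histone methylation through its PHD finger, measured 39.6 to 43.2 FPKM in Foxd1-Cre and 40.6 to 47.5 FPKM in wild types 1 to 6 (-0.06 ± 0.04, adjusted p = 0.386). It measured 29.1 to 32.1 FPKM in Six2-Cre and 28.4 to 31.0 FPKM in wild types 7 to 9 (0.02 ± 0.06, adjusted p = 0.892). For Pygo2 both pairs overlapped.

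Tle1 (ENSMUSG00000008305, chr4:72117142-72200919, minus strand), the Groucho co-repressor among the 10 genes, rose in Foxd1-Cre kidneys. It measured 24.4, 25.8, 26.3, 28.5 and 28.5 FPKM in Foxd1-Cre libraries, against 18.0, 18.6 and 20.8 FPKM as the lowest, median and highest of wild types 1 to 6. No library overlapped, with a ratio of means of 1.40 and a change of 0.46 ± 0.05 (SE, adjusted p = 6.65e-05). In Six2-Cre it measured 21.7, 19.7 and 20.6 FPKM, against 18.1, 18.7 and 21.3 FPKM in wild types 7 to 9. These overlapped, and the change of 0.09 ± 0.08 was not called (adjusted p = 0.475). The effects differed by 0.37 ± 0.09 (adjusted p = 0.0211), a call lost without Six2-Cre library 2 or 3 (adjusted p = 0.0810 and 0.0772) or wild type 8 (adjusted p = 0.0525).

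Groups stood wholly apart, mutant above, for 4 of the 10 genes in Foxd1-Cre (Lef1, Tcf7, Tle1 and Sp5), where this held for 6.89% of all genes tested, and wholly below for 0, where it held for 3.80% (10.7% either way). In Six2-Cre the mutant stood above for 4 (Ctnnb1, Lef1, Bcl9l and Sp5) and below for 2 (Tcf7l1 and Bcl9), where 18.0% and 17.7% of all genes did so with 3 libraries a side (35.7% either way). For the difference of the effects, 2 genes were called above 0 (Lef1 and Tle1), 2 below (Bcl9l and Sp5) and 6 were not called, where 5.76% of the 13810 genes were called above and 5.24% below (11.0% in all).

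**Figure D4:**
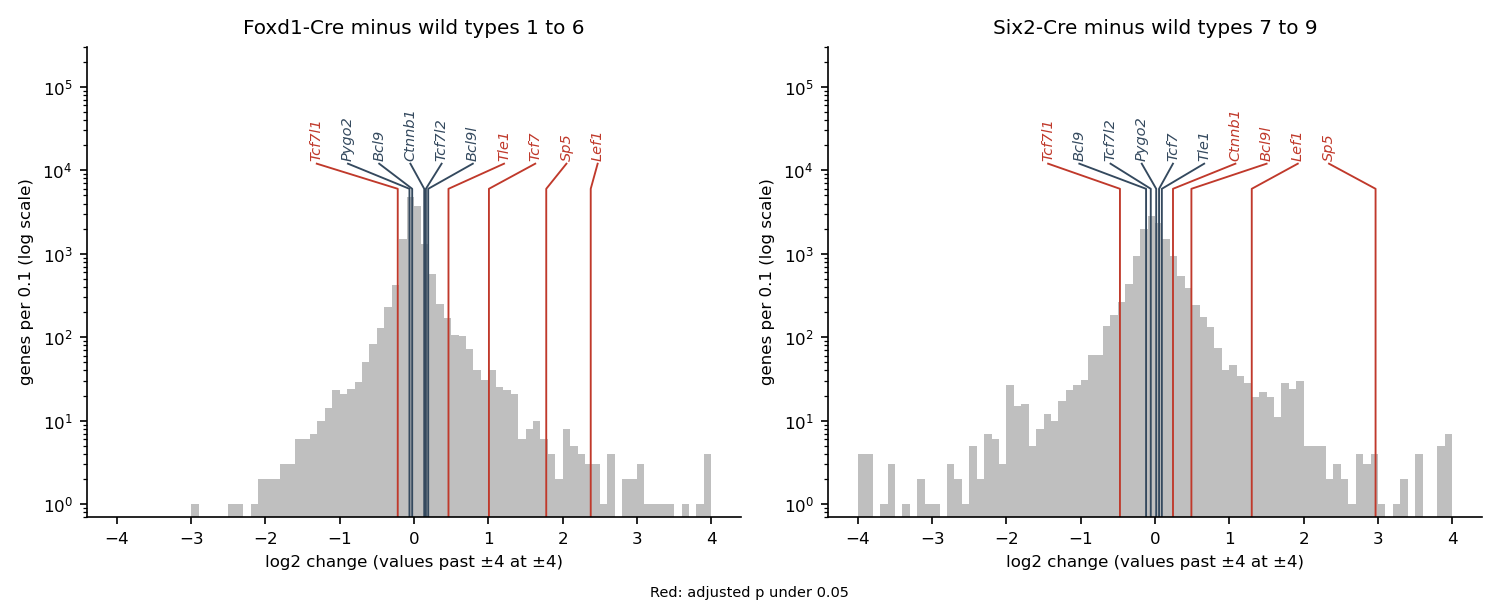
Histograms of the change in log2(FPKM + 1) over all genes tested (x, values past the axis ends drawn there; y, number of genes on a log scale), Foxd1-Cre left and Six2-Cre right, with a line for each of the 10 genes, red where the limma adjusted p is under 0.05. Lef1 at 2.38 and Sp5 at 1.78 stand far to the right in Foxd1-Cre, as do Sp5 at 2.97 and Lef1 at 1.30 in Six2-Cre, while most of the other lines lie within the bulk of genes near 0.

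Marker sums moved with these changes, and their part in them was not tested. The marker counts stand against 8.45% up and 4.82% down over all genes in Foxd1-Cre, and 7.93% up and 5.84% down in Six2-Cre. In Foxd1-Cre, 6 of 7 cortical stroma markers fell and their sum was 324 to 372 FPKM, against 576 to 656 FPKM in wild types 1 to 6. Of the 6 medullary stroma markers 4 rose and 2 fell there, with a sum of 478 to 548 FPKM against 553 to 645 FPKM. In Six2-Cre, all 7 nephron progenitor markers fell and their sum was 100.2 to 106 FPKM, against 286 to 326 FPKM in wild types 7 to 9. In Foxd1-Cre, 4 of the 7 fell, with a sum of 290.2 to 330.1 FPKM against 369 to 468 FPKM in wild types 1 to 6. All 5 erythroid markers tested fell in Six2-Cre, where the list summed to 3640 to 4570 FPKM against 7326 to 8817 FPKM in wild types 7 to 9. Of the 8 ureteric bud markers 5 fell in Six2-Cre and 0 rose, with a sum of 180.3 to 188 FPKM against 235 to 253 FPKM in wild types 7 to 9. At an unadjusted p under 0.05 (limma), 7 of the 8 were lower and 0 higher.

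Other lists stood apart in their sums. Among single genes tested, groups stood apart either way for 10.7% in Foxd1-Cre and 35.7% in Six2-Cre. A sum over several genes is another measure, and its own share was not computed. Medullary stroma markers summed to 413.5 to 430.5 FPKM in Six2-Cre against 453.1 to 466.3 FPKM in wild types 7 to 9, with 2 of 6 called up and 2 down. Neural markers summed to 29.8 to 40.5 FPKM in Foxd1-Cre against 18.4 to 21.8 FPKM in wild types 1 to 6, and to 24.5 to 37.8 FPKM in Six2-Cre against 14.6 to 23.0 FPKM in wild types 7 to 9, with 1 of 5 tested called up and 1 down in Foxd1-Cre and 3 up in Six2-Cre. The median change of the neural markers was -0.04 in Foxd1-Cre and 0.83 in Six2-Cre. In Six2-Cre, committed nephron markers summed to 170 to 175 FPKM against 197 to 228 FPKM in wild types 7 to 9, with 2 of 6 called up and 2 down and a median change of 0.03. Macrophage markers summed to 23.5 to 26.3 FPKM in Six2-Cre against 14.5 to 19.8 FPKM in wild types 7 to 9, with 3 of 6 called up. None of these markers was at 0 in all libraries of a group.

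The genes nearest to Lef1 in pattern were sought over the 17 libraries as the smallest root mean square difference in log2(FPKM + 1), after the mean of the wild types of the same set had been subtracted, among 11098 protein-coding genes. These candidates averaged at least 2 FPKM in the higher group of each comparison. For Lef1 the nearest were Axin2, Tnfrsf19 and Gap43, with differences of 0.187, 0.200 and 0.215 where the median candidate had 1.42. Axin2, a scaffold of the beta-catenin destruction complex, measured 68.0 ± 6.80 FPKM in Foxd1-Cre (SD, n = 5) and 10.1 ± 0.571 FPKM in wild types 1 to 6 (n = 6), and 36.5 ± 4.08 FPKM in Six2-Cre (n = 3) and 13.0 ± 0.538 FPKM in wild types 7 to 9 (n = 3).

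For Sp5 the nearest were Irx5, Msx1 and Pycr1, with differences of 0.201, 0.414 and 0.498 where the median candidate had 1.59. Irx5, a homeobox gene, measured 4.03 ± 0.682 FPKM in Foxd1-Cre (SD, n = 5) and 0.245 ± 0.0770 FPKM in wild types 1 to 6 (n = 6), and 6.89 ± 1.22 FPKM in Six2-Cre (n = 3) and 0.173 ± 0.156 FPKM in wild types 7 to 9 (n = 3). Msx1, another homeobox gene, averaged 6.42 FPKM in Foxd1-Cre against 1.16 FPKM in wild types 1 to 6, and 21.8 FPKM in Six2-Cre against 0.522 FPKM in wild types 7 to 9. Irx5 and Msx1 reached the 2 FPKM asked of candidates only in the mutants, so their place here rests on the groups where they are high. For Tcf7 the nearest were Kcne3, C530008M17Rik and Focad, with differences of 0.257, 0.272 and 0.287 where the median candidate had 0.624. The median candidate lies further from a gene that itself changed more. These medians therefore cannot rank the likeness found for Lef1, Sp5 and Tcf7. The libraries of a set share its depth, and these values are descriptions without a test.

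Of 12 further co-repressor genes of the TCF/LEF complex, 2 rose, 4 fell and 6 were not called in Foxd1-Cre, with a median change of -0.04, and 1 rose, 3 fell and 8 were not called in Six2-Cre, with a median of -0.06. Over all genes tested, 8.45% rose and 4.82% fell in Foxd1-Cre, and 7.93% rose and 5.84% fell in Six2-Cre. Those that fell in Foxd1-Cre were Hic1, Aes, Tle6 and Tle2. Hic1, a zinc-finger repressor that in human cells draws TCF7L2 away from its targets, averaged 20.7 FPKM in Foxd1-Cre and 54.6 FPKM in wild types 1 to 6 (-1.36 ± 0.06 SE, adjusted p = 2.47e-08). Aes, a short Groucho relative now named Tle5, averaged 234 FPKM in Foxd1-Cre and 286 FPKM in wild types 1 to 6 (-0.28 ± 0.04, adjusted p = 2.27e-04), and 108 FPKM in Six2-Cre and 148 FPKM in wild types 7 to 9 (-0.46 ± 0.05, adjusted p = 0.00312). Tle2 (-0.67 ± 0.18, adjusted p = 0.0290) and Tle6 (-0.34 ± 0.08, adjusted p = 0.0131) are named after their values were seen.

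Within the Groucho family the calls thus went both ways. Tle3 rose in Foxd1-Cre (0.28 ± 0.06 SE, adjusted p = 0.0118) and in Six2-Cre (0.18 ± 0.04, adjusted p = 0.0349), where the call was lost in each fit that left out 1 library (adjusted p = 0.0737 to 0.109), in the joint fit (0.0883) and without the variance trend (0.0738). Tle4 fell in Six2-Cre (-0.42 ± 0.06, adjusted p = 0.00931), a call lost with all 9 wild types as controls (adjusted p = 0.0761). Ctbp2, a co-repressor of another family, rose in Foxd1-Cre (0.21 ± 0.04, adjusted p = 0.00206), and Tbl1xr1, which takes part in exchanging co-repressors for co-activators, fell in Six2-Cre (-0.26 ± 0.04, adjusted p = 0.0151), a call lost without Six2-Cre library 2 or 3 or wild type 8 (adjusted p = 0.0550, 0.0635 and 0.0583).

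**Figure D5:**
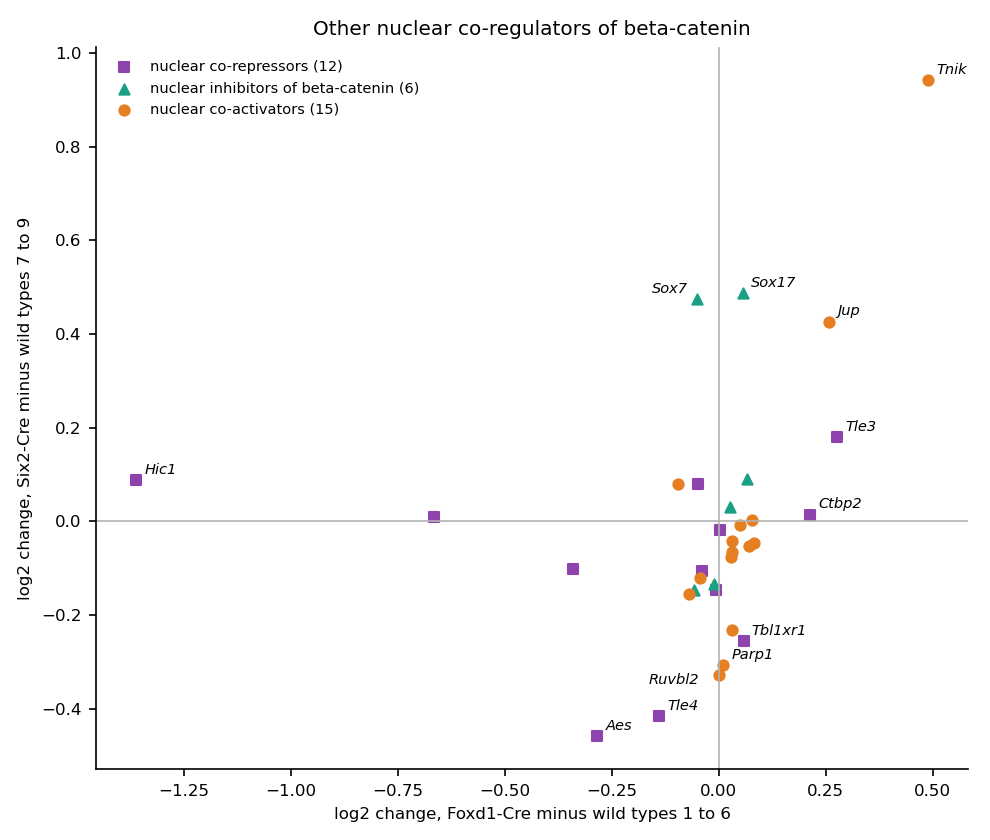
Change in log2(FPKM + 1) in Foxd1-Cre (x) and Six2-Cre (y) kidneys of 33 further nuclear co-regulators, by list; names mark genes chosen by the rule in either mutant. Most points lie near the origin, Tnik lies at 0.49 and 0.94, and Hic1 lies at -1.36 on the x axis.

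Of 15 co-activator genes tested, 2 rose, 0 fell and 13 were not called in Foxd1-Cre, with a median of 0.03, and 2 rose, 2 fell and 11 were not called in Six2-Cre, with a median of -0.05. By share, 13.3% rose and 0% fell in Foxd1-Cre, against 8.45% and 4.82% of all genes. In Six2-Cre 13.3% rose and 13.3% fell, against 7.93% and 5.84% of all genes. At an unadjusted p under 0.05 (limma), 2 of the 15 were higher and 1 lower in Foxd1-Cre, and 2 were higher and 4 lower in Six2-Cre. Tnik, a kinase that binds TCF7L2, averaged 2.42 ± 0.291 FPKM in Foxd1-Cre (SD, n = 5) and 1.43 ± 0.102 FPKM in wild types 1 to 6 (n = 6), and 4.58 ± 0.502 FPKM in Six2-Cre (n = 3) and 1.90 ± 0.129 FPKM in wild types 7 to 9 (n = 3). It rose in Foxd1-Cre by 0.49 ± 0.06 (SE, adjusted p = 2.05e-04) and in Six2-Cre by 0.94 ± 0.11 (adjusted p = 0.00380). Jup, the gene of plakoglobin, a close relative of beta-catenin, rose in Foxd1-Cre by 0.26 ± 0.06 (adjusted p = 0.0118) and in Six2-Cre by 0.43 ± 0.07 (adjusted p = 0.0159), the second lost without Six2-Cre library 3 or wild type 8 (adjusted p = 0.0567 and 0.0573) and with all 9 wild types as controls (adjusted p = 0.0754). In Six2-Cre, Ruvbl2, an ATPase of chromatin-remodelling complexes, fell by 0.33 ± 0.03 (adjusted p = 0.00319), and Parp1 fell by 0.31 ± 0.05 (adjusted p = 0.0141), lost without Six2-Cre library 2 or 3 or wild type 8 (adjusted p = 0.0509, 0.0583 and 0.0540).

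Of 6 nuclear inhibitors of beta-catenin, 0 rose, 0 fell and 6 were not called in Foxd1-Cre, and 2 rose, 0 fell and 4 were not called in Six2-Cre. At an unadjusted p under 0.05 (limma) the counts were the same, 0 and 0 in Foxd1-Cre and 2 and 0 in Six2-Cre. Those that rose were Sox7 (0.48 ± 0.09 SE, adjusted p = 0.0228) and Sox17 (0.49 ± 0.11, adjusted p = 0.0329), SOX factors that are also made by endothelial cells. All 6 endothelial markers rose in Six2-Cre, with a sum of 155 to 164 FPKM against 72.2 to 89.5 FPKM in wild types 7 to 9, and their part in the rise was not tested. In Foxd1-Cre, where 0 inhibitors were called, 3 of the 6 endothelial markers rose and 0 fell. Their sum there was 107.9 to 140 FPKM, overlapping 88.2 to 116.3 FPKM in wild types 1 to 6. The call of Sox7 was lost without any 1 Six2-Cre library or wild type 7 or 8 (adjusted p = 0.0514 to 0.0852), and that of Sox17 without any 1 Six2-Cre library or wild type 8 or 9 (adjusted p = 0.0806 to 0.109). Sox17 also lost its call with no filter on low values (adjusted p = 0.0547), with a mean of at least 2 FPKM required (0.0606), in the joint fit (0.0568) and with all 9 wild types as controls (0.221). Over the 3 lists together, 4 of 33 were called up and 4 down in the Foxd1-Cre comparison, and 5 up and 5 down in the Six2-Cre comparison, with medians of 0.01 and -0.05. Set against the shares over all genes, 8.45% up and 4.82% down with Foxd1-Cre and 7.93% up and 5.84% down with Six2-Cre, 12.1% of the 33 were up and 12.1% down with Foxd1-Cre and 15.2% up and 15.2% down with Six2-Cre.

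The direct targets of beta-catenin moved further. Of 13 tested, 10 rose, 1 fell and 2 were not called in Foxd1-Cre, with a median of 2.11 (8.45% up and 4.82% down over all genes), and 7 rose, 3 fell and 3 were not called in Six2-Cre, with a median of 1.18 (7.93% up and 5.84% down over all genes). Apcdd1, Notum, Axin2 and Nkd1, which encode inhibitors of the Wnt pathway, rose in Foxd1-Cre by 4.89 ± 0.10 (SE), 5.45 ± 0.12, 2.63 ± 0.06 and 3.37 ± 0.09 (adjusted p at most 4.44e-10). In Six2-Cre, Apcdd1 rose by 2.86 ± 0.08, Notum by 4.19 ± 0.17 and Nkd1 by 1.88 ± 0.07 (adjusted p at most 1.49e-04). Dkk1, the gene of a secreted Wnt inhibitor, rose in Six2-Cre by 2.54 ± 0.07 (adjusted p = 8.33e-05) and fell in Foxd1-Cre by 0.45 ± 0.10 (adjusted p = 0.0133), and the effects differed by -2.99 ± 0.12 (adjusted p = 1.51e-10). Ccnd1, Myc and Rnf43, named after their values were seen, fell in Six2-Cre by 0.69 ± 0.05, 0.80 ± 0.06 and 0.59 ± 0.10 (adjusted p at most 0.0147). These targets were listed with earlier results of these kidneys known, so their counts are no independent evidence of direction.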

How the data were processed

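Bulk RNA was sequenced from 17 libraries of dissected kidneys. The submitters' processing notes name bcl2fastq 2.17.1.14, Salmon and the mouse build GRCm38. Expression is in 1 table of FPKM deposited by the authors; the annotation release, gene-level summary, strand setting and scaling are not given in the sources used here, and where genes overlap their reads may not be separable. Groups and replicate numbers came from the sample titles; nothing says that replicates were separate animals, so p-values measure the spread between these samples.

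From the FPKM, genes reaching 1 FPKM in 3 or more libraries were transformed as log2(FPKM + 1) and fitted in each library set with limma 3.58.1 (R 4.3.3) with a variance trend, and p-values were adjusted by Benjamini-Hochberg over all genes. The difference of effects added the squared errors, with Satterthwaite degrees of freedom. The script was tested on simulated data. IDs were matched to symbols in GENCODE M21 (24222 of 24432). Depth was estimated from the smallest step between FPKM values.

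The 10 genes, the lists and the library sets were chosen with earlier results of these data known. Genes named are the 10, up to 4 called genes of each list per comparison by smallest p-value, and the 3 genes most like Lef1, Tcf7 and Sp5. Alternatives were the pseudocount, filters, scalings, 1 joint fit, no variance trend, all 9 wild types as controls, a replicate block, and leaving out each library.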

Additional observations from a re-analysis of the deposited data

Results flagged for a closer look

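The effects of the 2 mutants, tested as Foxd1-Cre minus Six2-Cre on the log2(FPKM + 1) scale, differed for 4 of the 10 genes. The value was 1.08 for Lef1 and 0.37 for Tle1, which rose more in Foxd1-Cre, and -1.19 for Sp5 and -0.30 for Bcl9l, which rose more in Six2-Cre. The calls of Lef1 and Sp5 held in every alternative tried for this difference, and those of Bcl9l and Tle1 did not hold without certain single libraries. In the 20 groups of Foxd1-Cre and wild types 1 to 6 examined for a library far from the others, 0 were found. The Six2-Cre libraries and wild types 7 to 9 were not examined in this way. Among these, Tcf7 measured 108.9 FPKM in wild type 9, against 192.5 FPKM in wild type 7 and 192.3 FPKM in wild type 8. The Tcf7 change in Six2-Cre was 0.05 with every library and -0.22 without wild type 9.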

How the results depend on the processing

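Lef1 and Sp5 (both mutants and the difference), Tcf7 and Tle1 in Foxd1-Cre, and Tcf7l1 and Bcl9l in Six2-Cre kept their calls under every alternative run. For the difference, all 9 wild types as controls and the replicate block were not run. Of 975 values of single genes under alternatives, 895 kept their direction and side of the threshold, 58 lost and 5 gained a call, and 17 changed sign. Of these 17, 3 had been called, all reversed with all 9 wild types as controls: Ctnnb1 in Six2-Cre (-0.045), Aes in Foxd1-Cre (0.030) and Tbl1xr1 in Six2-Cre (0.55). The other 14 were uncalled before and after. With all 9 wild types, Tcf7l2 (-0.22) and Pygo2 (0.11) changed sign in Foxd1-Cre, and Tcf7 (-0.66), Tcf7l2 (0.69), Bcl9 (0.070) and Pygo2 (-0.34) in Six2-Cre. Bcl9 in Foxd1-Cre did so with the same sum (0.0080) and without Foxd1-Cre library 4, in a range of -0.051 to 0.0076 over fits that left out 1 library. In Six2-Cre such fits ranged from -0.22 to 0.26 for Tcf7 (turned without Six2-Cre library 1 or wild type 9), from -0.15 to 0.069 for Tcf7l2 (Six2-Cre library 1 or wild type 8) and from -0.029 to 0.042 for Pygo2 (Six2-Cre library 1 or wild type 9). The cause was not tested, and using all 9 wild types mixes the library sets.

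In Foxd1-Cre 674 genes were called down, 405 with libraries rescaled to the same sum and 337 with all 9 wild types, and of the 10 genes 1 was called down as reported and 0 under each of these. In Six2-Cre, 1097 genes up and 808 down became 1864 and 1774 in 1 fit of 4 group means, and 2747 and 3697 with all 9 wild types. Of the 10 genes, the 2 called below 0 for the difference became 1 with the same sum and 1 in the joint fit, Bcl9l being lost, and the joint fit raised those above 0 to 3, Tcf7 being gained. Leaving out 1 library gave 568 to 885 genes up and 339 to 582 down in Six2-Cre, 0 to 1 of the 10 genes down in Foxd1-Cre, and 1 to 3 above and 1 to 2 below 0 for the difference. Leaving Tcf7 out of the TCF/LEF sum, chosen after seeing the data, put Lef1 at 47.9% in Foxd1-Cre, 12.7% in wild types 1 to 6, 45.5% in Six2-Cre and 20.9% in wild types 7 to 9. Scaling moved the median of all genes by at most 0.04. Low genes were less precise in the shallower Six2-Cre set.

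With the replicate number as a block, Foxd1-Cre against wild types 1 to 5 called 929 genes up and 497 down, and 4 of the 10 genes up and 1 down. To check pairing, the group mean of each gene was first subtracted from its log2(FPKM + 1) values. These deviations correlated between same-numbered libraries at 0.0767, 0.0565, 0.0563, 0.0117 and 0.117. Of the 5, 1 correlated best with its own number, so the numbers were not taken as pairs. For the Six2-Cre comparison no such block was possible, because Six2-Cre and wild types 7 to 9 share no numbers.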
